A study of Mus musculus with 4 samples.

Results

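The genes described here are the mouse Zfp genes, named Zfp and a number, that were expressed in spermatocyte suspensions: 150 of the 356 such symbols listed in an RNA sequencing table of 24388 gene symbols. The members were chosen by their measured RPKM values, which are reads scaled by gene length and library size: each reached 1 RPKM in at least 2 of the 4 libraries, and Zfp42 was left out. Their being expressed is therefore no result. The same filter kept 9099 genes of all kinds. The study compared 2 libraries of spermatocytes with the Np95 gene knocked out with 2 libraries of control spermatocytes, all of strain C57BL/6. Np95 is another name for Uhrf1, the protein that brings the maintenance DNA methyltransferase to newly copied DNA.

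All 4 samples carry the age label 21 dpc, which the labels do not spell out. The cells came from chopped seminiferous tubules that were digested with accutase and strained through a mesh. No sorting step is described. Poly(A) RNA was selected, made into libraries without strand information and sequenced in 50-bp pairs on a NovaSeq. The knockout columns are headed Np95cKO, but the Cre driver and the deleted part of the gene are not stated, nor whether the controls carry an allele of their own. Whether the replicates are separate animals is not said. The p-values below therefore reflect library-to-library spread, which could be purely technical.

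Most Zfp genes encode proteins with C2H2 zinc fingers, small folds that hold a zinc ion and read DNA in tandem arrays. Many of the arrays are joined to a KRAB domain, which binds the co-repressor Trim28 (KAP1). Trim28 in turn brings the histone methyltransferase Setdb1, heterochromatin proteins and the NuRD deacetylase complex. KRAB zinc finger proteins are known for silencing retrotransposons and, in a few cases, for keeping the methylation of imprinted genes. A symbol of this kind names no single family, however: some members bind RNA, act as ubiquitin ligases or carry zinc fingers of another type.

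The starts of 5 members are shown because they had the largest changes in each direction among members with an entry in the RefSeq promoter table, with 1 X-linked gene added. Each run gives 250 bases before and 50 bases after the first listed transcription start in GRCm38.p6, 5′ to 3′ on the gene's strand. Capitals mark CG dinucleotides, the sites at which the maintenance methylation served by Np95 takes place. DNA methylation itself was not measured in these samples.
Zfp740 (chr15:102203750-102204049, plus strand): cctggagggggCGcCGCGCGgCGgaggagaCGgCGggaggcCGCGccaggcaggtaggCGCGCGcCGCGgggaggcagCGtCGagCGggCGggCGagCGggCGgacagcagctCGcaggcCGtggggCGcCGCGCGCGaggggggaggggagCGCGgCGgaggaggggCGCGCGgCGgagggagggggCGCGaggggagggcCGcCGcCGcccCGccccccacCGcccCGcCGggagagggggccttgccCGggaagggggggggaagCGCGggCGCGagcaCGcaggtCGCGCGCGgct
Zfp553 (chr7:127232811-127233110, plus strand): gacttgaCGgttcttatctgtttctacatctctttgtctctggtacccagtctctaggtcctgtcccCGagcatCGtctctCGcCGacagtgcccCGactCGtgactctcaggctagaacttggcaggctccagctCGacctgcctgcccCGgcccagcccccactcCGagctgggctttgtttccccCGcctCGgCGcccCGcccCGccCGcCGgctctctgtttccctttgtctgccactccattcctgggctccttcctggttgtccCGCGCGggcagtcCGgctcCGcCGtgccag
Zfp275 (chrX:73342370-73342669, plus strand): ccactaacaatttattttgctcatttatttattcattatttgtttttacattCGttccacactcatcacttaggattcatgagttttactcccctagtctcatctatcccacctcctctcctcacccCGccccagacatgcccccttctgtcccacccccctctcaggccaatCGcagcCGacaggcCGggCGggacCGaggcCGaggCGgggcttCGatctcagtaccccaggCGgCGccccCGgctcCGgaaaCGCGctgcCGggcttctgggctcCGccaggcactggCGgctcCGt
Zfp956 (chr6:47953140-47953439, plus strand): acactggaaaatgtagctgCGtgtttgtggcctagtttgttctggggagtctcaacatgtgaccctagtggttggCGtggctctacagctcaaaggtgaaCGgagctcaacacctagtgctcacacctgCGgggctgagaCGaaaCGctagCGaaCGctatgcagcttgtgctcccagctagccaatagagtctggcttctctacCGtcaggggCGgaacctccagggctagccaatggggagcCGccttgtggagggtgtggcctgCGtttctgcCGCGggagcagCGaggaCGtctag
Zfp110 (chr7:12834511-12834810, plus strand): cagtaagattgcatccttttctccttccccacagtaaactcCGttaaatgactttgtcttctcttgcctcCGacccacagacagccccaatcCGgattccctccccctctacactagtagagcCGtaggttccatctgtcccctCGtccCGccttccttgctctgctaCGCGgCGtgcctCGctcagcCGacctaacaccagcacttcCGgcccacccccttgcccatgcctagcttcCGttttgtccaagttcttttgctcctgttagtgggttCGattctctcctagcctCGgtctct
The first 3 lie at genes with higher levels in the knockout and the last 2 at genes with lower levels. The Zfp740 start held 54 CG dinucleotides in its 300 bases, the most of any member with an entry. Zfp553 had 23, Zfp275 had 20, Zfp956 had 16 and Zfp110 had 15.

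The 2 knockout libraries correlated at r = 0.977 and the 2 control libraries at r = 0.993 on the log2 scale, against 0.790 to 0.884 between the groups. Uhrf1 had 1.87 and 1.48 RPKM in the knockout libraries, against 3.11 and 3.29 RPKM in the control libraries (log2 fold change -0.65 ± 0.10 SE, limma adjusted p = 0.00310). Its values were lower in both knockout libraries but far from 0. Marker genes of other testis cells moved with the groups. The 17 listed Sertoli cell markers summed to 422 to 530 RPKM in the knockout libraries, against 140 to 164 RPKM in the control libraries, and 15 of 15 tested were called higher. Leydig cell markers summed to 52.3 to 60.6 RPKM in the knockout libraries, against 18.6 to 19.1 RPKM in the control libraries, with 5 of 6 tested called higher. Macrophage markers summed to 12.51 to 16.02 RPKM in the knockout libraries, against 5.10 to 6.46 RPKM in the control libraries, with 5 of 5 called higher. Peritubular markers summed to 4.59 to 4.72 RPKM in the knockout libraries, against 2.49 to 2.67 RPKM in the control libraries, and the only one tested was called higher. The sums of these somatic lists were thus higher in both knockout libraries, while those of later germ cells were lower. Pachytene spermatocyte markers summed to 484 to 608 RPKM in the knockout libraries, against 1267 to 1290 RPKM in the control libraries, and 10 of 11 tested were called lower. Spermatid markers summed to 71.2 to 114 RPKM in the knockout libraries, against 347 to 353 RPKM in the control libraries, with 5 of 6 called lower. Spermatogonial markers summed to 48.1 to 49.8 RPKM in the knockout libraries, against 48.5 to 53.2 RPKM in the control libraries. As deposited, these sums lay close together, yet 5 of 6 tested were called higher. The marker on this list with the highest deposited RPKM in every library was Id4, which was called lower. It had 24.6 and 21.6 RPKM in the knockout libraries, against 39.0 and 41.7 RPKM in the control libraries. Of the 10 listed, 9 had a higher mean in the knockout. Over all tested genes, 43.3% were called higher and 30.5% lower. Wt1, Gata4, Trf, Cyp11a1, C1qb, Cd68 and Dmrt1 passed the filter through the knockout alone, which fixed their direction. No marker of these lists was at 0 in all 4 libraries. The part of these cell type markers in the Zfp results below was not tested. In such mixed suspensions, fewer cells of a type and less RNA per cell cannot be told apart.

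By a profile search of their coding sequences, 60 of 217 listed Zfp genes with a KRAB domain passed the filter (27.6%), and 88 of 135 without one (65.2%). These shares describe what the filter kept. As the RPKM values were scaled by gene span, introns included, they do not compare expression between the 2 classes. The remaining 2 members, Zfp389 and Zfp783, had no coding sequence in the annotation used. RefSeq lists Zfp389 as a transcribed pseudogene and Zfp783 as a long non-coding RNA. A C2H2 pattern was found a median of 9 times per coding member, 11 times in members with a KRAB domain and 6.5 times in those without. Zfp142 had the most, 31. In 12 members no C2H2 pattern was found: Zfp36, Zfp106, Zfp326, Zfp330, Zfp346, Zfp395, Zfp414, Zfp593, Zfp638, Zfp703, Zfp830 and Zfp839. Just inside the threshold stood Zfp667, Zfp568 and Zfp113, whose second highest values were 1.01, 1.03 and 1.07 RPKM. Zfp820, Zfp3 and Zfp317 stood just outside it at 0.992, 0.989 and 0.978 RPKM. Another 206 listed Zfp genes were below the filter, 2 of them at 0 in all libraries.

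Of the 150 expressed Zfp genes, 63 were called higher in the knockout, 31 lower and 56 neither (limma, adjusted p under 0.05). That is 62.7% called, against 73.8% of all 9099 tested genes. Calls of a higher level made up 42.0% of the Zfp genes and 43.3% of all tested genes, and calls of a lower level 20.7% and 30.5%. The median log2 fold change was 0.17 over the Zfp genes and 0.14 over all tested genes. The values of knockout and control libraries did not overlap for 135 of the 150, or 90.0%, against 89.9% of all tested genes. The shares of higher calls and of groups that did not overlap were near those of the whole table, which makes them no result about the Zfp genes. The share of lower calls was below that of the table, and this difference was not tested.

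**Figure D1:**
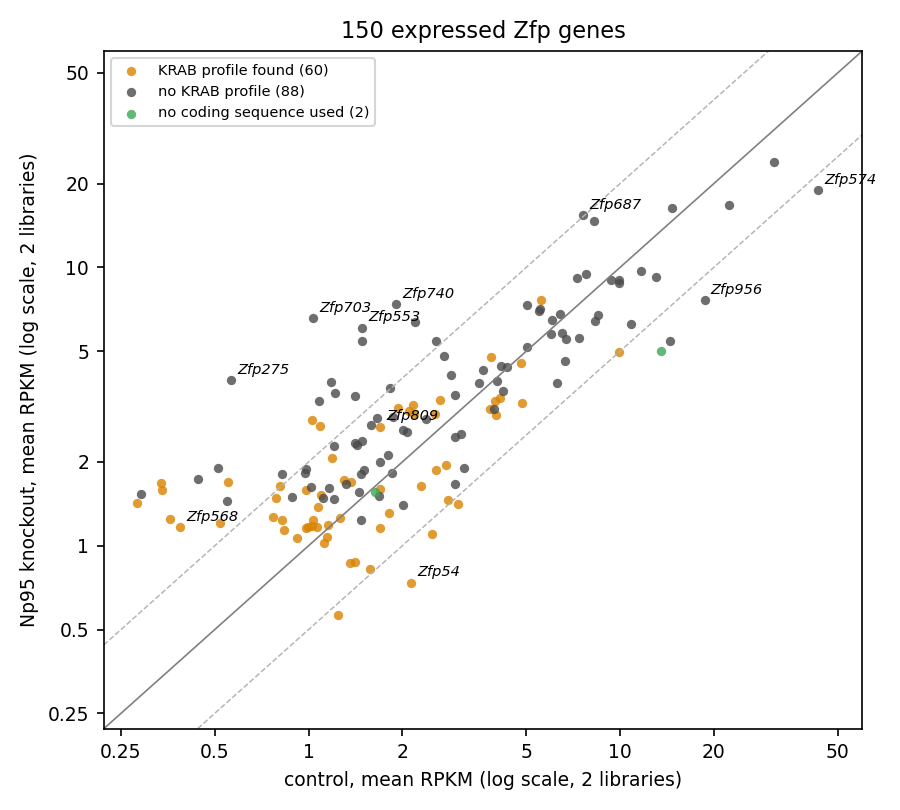
Mean RPKM of each of the 150 expressed Zfp genes in the 2 Np95 knockout libraries (vertical) and the 2 control libraries (horizontal), both on log axes. The solid line is equality and the dashed lines a ratio of 2, and colours show whether a KRAB profile was found (60 genes), not found (88) or not searched (2). Zfp703 and Zfp275 stand farthest above the lines, while Zfp574 and Zfp956 lie below.

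The filter fixed part of this picture. Below 1 RPKM in both control libraries, 21 members passed through the knockout alone, and 3 members (Zfp59, Zfp94 and Zfp202) passed through the control alone. Such genes had to differ, and no test is quoted for them. The other 126 reached 1 RPKM in at least 1 library of each group: 43 were called higher, 28 lower and 55 neither. That is 56.3% called, against 68.3% of the 7270 tested genes that met the same condition. Their share of higher calls was 34.1%, against 35.3%, and their share of lower calls 22.2%, against 33.0%. Their median log2 fold change was 0.11, against 0.03.

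The split of calls moved with the scaling of the libraries. The RPKM values summed to 70135 to 72805 in the knockout libraries, against 94177 to 96578 in the control libraries. As deposited, 67.0% of the called Zfp genes were higher, and 58.7% of all called genes. With the libraries set to an equal RPKM sum the shares were 89.9% of the Zfp calls (98 higher, 11 lower) and 75.9% of all. With an equal median they were 46.2% (43 higher, 50 lower) and 46.3%, and with quantile normalization 47.0% (39 higher, 44 lower) and 50.9%. The median of all tested genes moved with these settings too, at 0.44, -0.05 and 0.01 in place of 0.14. Most of the Zfp genes named by rule below were far enough from 0 to keep their sign in all of them, and those that did not are pointed out. Genes named outside that rule, such as Zfp771 and the partners of KRAB zinc finger proteins, are given as deposited only.

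The largest higher levels were found for genes of varied function. Zfp703, a co-repressor of the NET family in which no C2H2 pattern was found, had 4.56 and 8.60 RPKM in the knockout libraries, against 0.948 and 1.11 RPKM in the control libraries, a ratio of the means of 6.38 (log2 fold change 1.85 ± 0.26 SE, adjusted p = 0.00263). The 2 knockout libraries were further apart here than for most named members. Both lay above both controls, which the choice of this set of genes required. Zfp740 had 6.65 and 8.11 RPKM in the knockout libraries, against 1.74 and 2.07 RPKM in the control libraries (log2 fold change 1.52 ± 0.12 SE, adjusted p = 0.00136). Zfp553, which encodes 12 fingers, had 5.12 and 7.03 RPKM in the knockout libraries, against 1.46 and 1.52 RPKM in the control libraries (log2 fold change 1.495 ± 0.14 SE, adjusted p = 0.00141). For both genes every knockout value was more than 3 times every control value.

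Zfp219, a partner of Sox9 in mouse cartilage cells, had 5.04 and 5.85 RPKM in the knockout libraries, against 1.39 and 1.59 RPKM in the control libraries (log2 fold change 1.37 ± 0.10 SE, adjusted p = 0.00136). Its span overlaps that of Arhgef40, which was also called higher, with 1.14 and 1.39 RPKM in the knockout libraries, against 0.353 and 0.369 RPKM in the control libraries. Without strand, reads in the shared stretch cannot be assigned to either gene. Zfp36 encodes tristetraprolin, an RNA-binding protein with CCCH fingers that speeds the decay of messages with AU-rich elements. It had 5.17 and 7.53 RPKM in the knockout libraries, against 2.25 and 2.13 RPKM in the control libraries (log2 fold change 1.19 ± 0.17 SE, adjusted p = 0.00256). Zfp655, whose human counterpart binds the signalling protein Vav1, had 3.68 and 4.10 RPKM in the knockout libraries, against 1.07 and 1.28 RPKM in the control libraries (log2 fold change 1.17 ± 0.09 SE, adjusted p = 0.00136). The groups were apart for all 3, which the choice of these genes required.

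Zfp142, with the longest array of fingers, had 3.12 and 3.52 RPKM in the knockout libraries, against 1.21 and 0.948 RPKM in the control libraries, a log2 fold change of 1.06. Zfp579 had 3.07 and 4.03 RPKM in the knockout libraries, against 1.06 and 1.37 RPKM in the control libraries, a log2 fold change of 1.03. Zfp213, the only one of the genes named so far in this direction with a KRAB domain, had 2.64 and 3.01 RPKM in the knockout libraries, against 0.733 and 1.32 RPKM in the control libraries, a log2 fold change of 0.93. Its control libraries differed by more than its knockout libraries. Zfp213 shares 52.3% of its 50-base words with other genes and overlaps 6330415G19Rik, which was also called higher, so its reads are uncertain. Zfp142 shares 17.1% of its words in this way and Zfp703 10.6%. Adjusted p-values by limma were 0.00139 for Zfp142, 0.00217 for Zfp579 and 0.00436 for Zfp213.

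**Figure D2:**
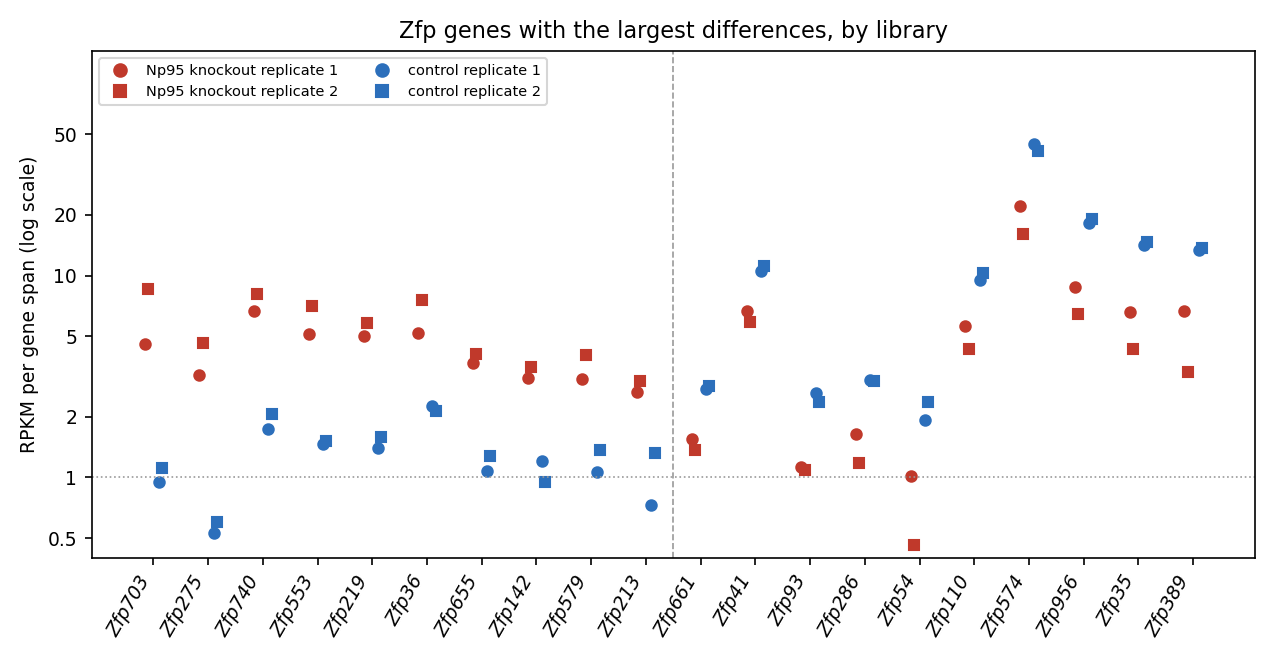
RPKM per library (log axis) of the 10 members with the largest higher and the 10 with the largest lower log2 fold changes, left and right of the dashed line. They were picked among called genes whose groups did not overlap and whose mean reached 2 RPKM in a group. Red symbols are the 2 Np95 knockout libraries and blue symbols the 2 control libraries. The dotted line marks 1 RPKM. Red and blue symbols do not overlap for any gene shown, which the choice of genes required. The genes run from Zfp703 (6.58 in the knockout, against 1.03 in the control, as means) to Zfp389 (5.02 against 13.5).

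The lower genes included a pseudogene, a gene of pachytene spermatocytes and several KRAB genes. Zfp389, the transcribed pseudogene, had 6.71 and 3.33 RPKM in the knockout libraries, against 13.3 and 13.6 RPKM in the control libraries (log2 fold change -1.33 ± 0.28 SE, adjusted p = 0.00873). Its mean was 2.69-fold lower in the knockout, 4.05-fold lower without knockout replicate 1 and 2.01-fold lower without knockout replicate 2. Zfp35, a gene known for its expression in pachytene spermatocytes, had 6.57 and 4.32 RPKM in the knockout libraries, against 14.2 and 14.7 RPKM in the control libraries (log2 fold change -1.29 ± 0.18 SE, adjusted p = 0.00256). Zfp956 had 8.78 and 6.47 RPKM in the knockout libraries, against 18.2 and 19.2 RPKM in the control libraries (log2 fold change -1.20 ± 0.15 SE, adjusted p = 0.00193). It overlaps Zfp783, which was not called. Knockout replicate 2 was the lowest library for each of these 3 genes.

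Zfp574, which encodes 18 fingers, had 22.004 and 15.99 RPKM in the knockout libraries, against 44.9 and 41.4 RPKM in the control libraries (log2 fold change -1.16 ± 0.17 SE, adjusted p = 0.00294). Zfp110 encodes NRIF, a protein that binds the intracellular part of the p75 neurotrophin receptor and carries a KRAB domain. It had 5.64 and 4.33 RPKM in the knockout libraries, against 9.46 and 10.3 RPKM in the control libraries (log2 fold change -0.87 ± 0.13 SE, adjusted p = 0.00315). Zfp54, another KRAB gene, had 1.01 and 0.463 RPKM in the knockout libraries, against 1.92 and 2.36 RPKM in the control libraries (log2 fold change -0.87 ± 0.17 SE, adjusted p = 0.00753). Its mean was 2.90-fold lower in the knockout, 4.62-fold lower without knockout replicate 1 and 2.12-fold lower without knockout replicate 2.

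The 4 remaining genes of this set had smaller changes on the log2(RPKM + 1) scale, which understates those of low genes. Zfp286 had 1.64 and 1.18 RPKM in the knockout libraries, against 3.02 and 3.004 RPKM in the control libraries, a log2 fold change of -0.74. Zfp93 had 1.13 and 1.08 RPKM in the knockout libraries, against 2.62 and 2.36 RPKM in the control libraries, a log2 fold change of -0.73, and shares 20.8% of its 50-base words with other genes. Zfp41 had 6.66 and 5.85 RPKM in the knockout libraries, against 10.5 and 11.2 RPKM in the control libraries, a log2 fold change of -0.71. All of these genes had both knockout values below both control values, which was a condition of their choice. Zfp661 had 1.55 and 1.37 RPKM in the knockout libraries, against 2.75 and 2.85 RPKM in the control libraries, a log2 fold change of -0.63. Adjusted p-values by limma were 0.00305 for Zfp286, 0.00151 for Zfp93, 0.00238 for Zfp41 and 0.00191 for Zfp661. None of the tested genes named so far in this direction or the other lost its call or changed sign under any alternative setting that tested it. At a limit of a 2-fold change on the log2(RPKM + 1) scale, 10 members were called higher (6.67%) and 4 lower (2.67%), against 10.6% and 9.23% of all tested genes. Zfp275 and Zfp398 among the 10 passed the filter through the knockout alone. Pachytene and spermatid markers were lower and Sertoli, Leydig and macrophage markers higher in the same libraries, with the sums given above.

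Both X-linked members passed the filter through the knockout alone, so their values are a description. Zfp275 had 3.20 and 4.65 RPKM in the knockout libraries, against 0.529 and 0.598 RPKM in the control libraries, a ratio of the means of 6.96. Zfp711, a relative of the transcription factor Zfx, had 1.67 and 2.13 RPKM in the knockout libraries, against 0.551 and 0.473 RPKM in the control libraries, a ratio of 3.71. Most tested X-linked genes moved the same way: of 265, 251 were called higher (94.7%) and 4 lower (1.51%). Over all tested genes these shares were 43.3% and 30.5%. The 265 had a median of 1.06 on the log2 scale, against 0.14 for all tested genes. Genes that passed the filter through the knockout alone, which fixed their direction, are among the 265 and were not counted apart. In normal male meiosis the X chromosome is silenced at the pachytene stage, and the part of the chromosome in the values of Zfp275 and Zfp711 was not tested. The 3 autosomal members of this kind with the largest log2 fold changes on the log2(RPKM + 1) scale were Zfp398, Zfp395 and Zfp266. Zfp395 had 1.35 and 1.73 RPKM in the knockout libraries, against 0.267 and 0.312 RPKM in the control libraries. Zfp398, whose human counterpart binds the estrogen receptor, had 1.46 and 1.91 RPKM in the knockout libraries, against 0.351 and 0.319 RPKM in the control libraries. Zfp266 had 1.46 and 1.71 RPKM in the knockout libraries, against 0.273 and 0.403 RPKM in the control libraries. Passing through the knockout alone put both knockout values of each of these genes above both control values.

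Some of the KRAB zinc finger genes on the role list have a known silencing target. Zfp445, a keeper of imprints in mouse and human embryos, had 7.03 and 8.29 RPKM in the knockout libraries, against 6.01 and 5.13 RPKM in the control libraries (log2 fold change 0.40 ± 0.12 SE, adjusted p = 0.0298). This call was lost without any one of 3 libraries (knockout replicate 2 or either control), with equal medians and with no filter. The gene overlaps Zkscan7, which was called lower. Zfp809, which silences murine leukaemia viruses by their primer binding site for proline tRNA, had 2.36 and 3.0016 RPKM in the knockout libraries, against 1.64 and 1.754 RPKM in the control libraries (log2 fold change 0.44 ± 0.11 SE, adjusted p = 0.0152). Its call was lost without either control library, with equal medians and with quantile normalization. The values of both groups were nonetheless apart for the 2 genes as deposited.

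Zfp568, which represses a placental transcript of Igf2, passed through the knockout alone, with 1.03 and 1.30 RPKM in the knockout libraries, against 0.360 and 0.413 RPKM in the control libraries. Zfp57, the best known keeper of imprinted methylation in embryos, was below the filter at 0.477 and 0.217 RPKM in the knockout libraries, against 0.689 and 0.522 RPKM in the control libraries. Zfp819, implicated in the silencing of retroelements, was also below it, at 0.185 and 0.224 RPKM in the knockout libraries, against 0.202 and 0.148 RPKM in the control libraries. The groups overlapped for Zfp819 but not for Zfp57, and the filter kept those of Zfp568 apart. Zfp932 lay closer to the threshold, at 1.08 and 0.917 RPKM in the knockout libraries, against 0.927 and 0.785 RPKM in the control libraries, and its groups overlapped. Zfp708 had 0.154 and 0.165 RPKM in the knockout libraries, against 0.0601 and 0.0478 RPKM in the control libraries. Zfp30, a regulator of Cxcl1 in mouse lung, had 0.248 and 0.212 RPKM in the knockout libraries, against 0.101 and 0.114 RPKM in the control libraries. For both, the knockout values were the higher ones, without a test. Zfp92 on the X chromosome was at or near 0 in every library.

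Of genes known from male germ cells, Zfp35 fell, as described above, and 3 others were not called. Zfp541, a germ cell protein that acts with Kctd19 and histone deacetylases in the exit from meiotic prophase, had 7.44 and 6.09 RPKM in the knockout libraries, against 8.84 and 8.17 RPKM in the control libraries. It was not called (log2 fold change -0.30 ± 0.12 SE, adjusted p = 0.0671), and its log2 fold change turned to 0.07 with an equal RPKM sum. Zfp318, also called testicular zinc finger protein, had 9.02 and 9.06 RPKM in the knockout libraries, against 9.45 and 9.25 RPKM in the control libraries. This difference was not called (log2 fold change -0.04, adjusted p = 0.647), and it turned to 0.33 with an equal RPKM sum and 0.08 with quantile normalization. Zfp39 had 3.78 and 3.01 RPKM in the knockout libraries, against 4.29 and 3.96 RPKM in the control libraries, and was not called (log2 fold change -0.23, adjusted p = 0.123), turning to 0.10 with an equal RPKM sum. Zfp37, a testis gene below the filter, had 0.522 and 0.406 RPKM in the knockout libraries, against 0.872 and 0.861 RPKM in the control libraries. For Zfp541, Zfp318, Zfp39 and Zfp37 alike, both knockout values lay below both control values, by less than the test could call for the first 3.

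Several members on the role list act in RNA or ribosome biology. Zfp622, a relative of the yeast factor Rei1 in the making of the large ribosomal subunit, had 4.68 and 6.17 RPKM in the knockout libraries, against 2.35 and 2.79 RPKM in the control libraries (log2 fold change 0.84 ± 0.14 SE, adjusted p = 0.00427). Zfp598, a ubiquitin ligase that marks collided ribosomes, had 9.51 and 8.74 RPKM in the knockout libraries, against 7.30 and 7.27 RPKM in the control libraries (log2 fold change 0.29, adjusted p = 0.0297). Zfp326, part of the DBIRD complex that links transcription to splicing, had 1.61 and 1.62 RPKM in the knockout libraries, against 1.19 and 1.15 RPKM in the control libraries (log2 fold change 0.27, adjusted p = 0.0173). Zfp622 kept its call in each alternative, while Zfp598 and Zfp326 lost theirs without either control library and with equal medians.

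Zfp638, whose human counterpart NP220 silences unintegrated retroviral DNA, had 2.61 and 2.60 RPKM in the knockout libraries, against 2.10 and 1.93 RPKM in the control libraries (log2 fold change 0.26, adjusted p = 0.0268). Its call was lost without knockout replicate 2 or either control, with equal medians and with quantile normalization. Zfp106, an RNA-binding protein needed by motor neurons, passed through the knockout alone, with 1.70 and 2.06 RPKM in the knockout libraries, against 0.971 and 0.990 RPKM in the control libraries. Zfp830, which takes part in splicing, was called lower, with 8.88 and 9.57 RPKM in the knockout libraries, against 13.5 and 12.6 RPKM in the control libraries (log2 fold change -0.46 ± 0.09 SE, adjusted p = 0.00799). Its span overlaps Cct6b, a testis chaperonin subunit that had 1.86 and 1.26 RPKM in the knockout libraries, against 5.43 and 6.04 RPKM in the control libraries. The call on Zfp830 was lost without control replicate 1, with an equal RPKM sum and with quantile normalization.

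Chromatin and cell division factors gave a mixed picture. Zfp281, a transcription factor of pluripotent cells, had 13.1 and 16.4 RPKM in the knockout libraries, against 8.21 and 8.33 RPKM in the control libraries (log2 fold change 0.75 ± 0.13 SE, adjusted p = 0.00418). Zfp335, a partner of a histone methyltransferase complex, had 2.42 and 2.99 RPKM in the knockout libraries, against 1.68 and 1.503 RPKM in the control libraries (log2 fold change 0.51 ± 0.10 SE, adjusted p = 0.00781). Zfp207, the kinetochore protein BuGZ, had 9.40 and 9.60 RPKM in the knockout libraries, against 7.73 and 7.77 RPKM in the control libraries (log2 fold change 0.26, adjusted p = 0.0312). Zfp281 kept its call throughout, Zfp335 lost it with quantile normalization alone, and Zfp207 lost it without either control library, with equal medians and with a replicate block.

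Zfp217, which works with the demethylase complex of LSD1 and CoREST, had 3.78 and 3.87 RPKM in the knockout libraries, against 3.52 and 3.53 RPKM in the control libraries. It was not called (log2 fold change 0.09, adjusted p = 0.297), and its sign turned with equal medians (-0.10) and quantile normalization (-0.05). Zfp91, a ubiquitin ligase, had 8.73 and 8.88 RPKM in the knockout libraries, against 10.2 and 9.70 RPKM in the control libraries, and was not called (log2 fold change -0.16, adjusted p = 0.144), turning to 0.22 with an equal RPKM sum. Several factors of this kind were below the filter. Zfp143, an activator that also bridges chromatin loops, had 0.571 and 0.592 RPKM in the knockout libraries, against 0.505 and 0.413 RPKM in the control libraries. Zfp148 had 0.537 and 0.659 RPKM in the knockout libraries, against 0.268 and 0.247 RPKM in the control libraries. X-linked Zfp185, a protein of the actin cytoskeleton, had 0.218 and 0.266 RPKM in the knockout libraries, against 0.0213 and 0.0441 RPKM in the control libraries. These 3 had higher values in both knockout libraries, while the transcription factors Zfp423 and Zfp521 stayed under 0.04 RPKM everywhere.

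The rule for named genes took in Zfp654, Zfp646 and Zfp768 for their RPKM values as deposited, beside Zfp574 and Zfp956. These values depend on each gene's span and do not rank the genes. Zfp654 had 25.3 and 22.7 RPKM in the knockout libraries, against 31.7 and 30.5 RPKM in the control libraries, a log2 fold change of -0.36 (adjusted p = 0.0270) that turned to 0.04 with an equal RPKM sum and 0.11 with quantile normalization. Its call was lost without either control library. Zfp646 had 18.4 and 15.1 RPKM in the knockout libraries, against 23.5 and 21.2 RPKM in the control libraries, a log2 fold change of -0.40 (adjusted p = 0.0403). Its call was lost in 6 of the settings tried, among them each one that left out knockout replicate 2 or a control library. Zfp768 had 17.0 and 15.6 RPKM in the knockout libraries, against 15.3 and 14.03 RPKM in the control libraries, and was not called (log2 fold change 0.14, adjusted p = 0.241), turning to -0.05 with equal medians. Zfp113 near the threshold was not called either (log2 fold change -0.07, adjusted p = 0.473), turning to 0.15 with an equal RPKM sum. Zfp687, singled out after its values were seen, had 14.97 and 15.8 RPKM in the knockout libraries, against 7.69 and 7.54 RPKM in the control libraries. It is a partner of the chromatin reader Zmynd8 in human cells, and its ratio of the means, 2.02, was the largest among members with a mean of 10 RPKM or more.

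Zfp genes lie in clusters, and 61 of the 150 stood in 22 runs of 2 or more expressed members with at most 3 protein-coding genes between neighbours. Chromosome 7 held 46 members, 30.7% of them, against 8.19% of all tested genes with a known chromosome. Of those 46, 13 were called higher (28.3%) and 14 lower (30.4%), against 40.2% and 29.6% of the 742 tested genes there. Zfp568, Zfp606, Zfp668 and Zfp850 among the 13 passed the filter through the knockout alone. Zfp59 and Zfp94 among the 14 passed through the control alone. Counting only members that reached 1 RPKM in each group, 8 runs had at least 2 called members: 2 of these held calls of a higher level alone, 3 of a lower level alone and 3 both. How far this departs from runs of other genes was not tested. Zfp93, Zfp61 and Zfp94 on chromosome 7 all had lower values in the knockout, although Zfp94 passed through the control alone. Zfp553 was called higher and its neighbour Zfp771 lower, at 5.74 and 5.38 RPKM in the knockout libraries, against 7.18 and 7.62 RPKM in the control libraries, while Zfp768 beside them was not called. The longest run, on chromosome 6, joined Zfp398, Zfp212, Zfp783, Zfp956, Zfp777 and Zfp746, with 1 called lower (Zfp956) and 3 not called, and with Zfp398 and Zfp777 higher in the knockout but passing through it alone. On chromosome 9, Zfp445 was called higher and Zfp105 lower. Chromosomes 5 and 8 were singled out after their values were seen. Chromosome 5 had 8 members called higher of 11 (72.7%) and 0 lower, against 40.9% higher and 32.0% lower of all tested genes there. Zfp68 and Zfp157 among the 8 passed through the knockout alone. On chromosome 8, 8 of 14 members were called higher (57.1%) and 1 lower (7.14%), against 41.1% and 33.6%. Zfp1, Zfp90 and Zfp358 among these passed through the knockout alone.

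**Figure D3:**
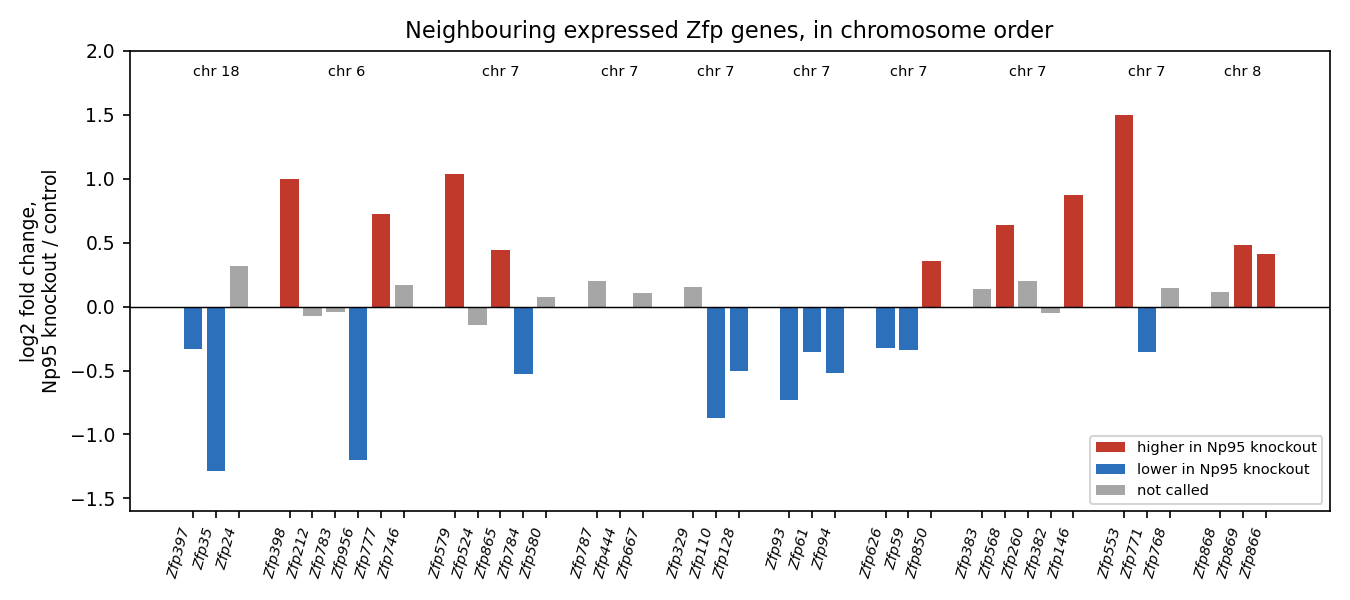
Log2 fold change, Np95 knockout over control, of members in runs of 3 or more neighbouring expressed Zfp genes, in chromosome order, with each run's chromosome above it. Red bars were called higher, blue bars lower and grey bars neither, and members that passed the filter through one group alone are included. Bars of both signs stand side by side on chromosomes 6 and 7, as for Zfp553 (1.495) and Zfp771 (-0.36).

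Differences between members with and without a KRAB domain were not tested. Of the 60 with the domain, 24 were called higher and 14 lower, with a median log2 fold change of 0.13. Of the 88 without it, 39 were called higher and 16 lower, with a median of 0.19. Higher calls were thus 40% with the domain and 44.3% without it, against 43.3% of all tested genes, and lower calls 23.3% and 18.2%, against 30.5%. Among members that reached 1 RPKM in each group the counts were 12 higher and 11 lower of 44 with the domain, and 31 higher and 16 lower of 80 without it. The shares were 27.3% and 25% with the domain and 38.8% and 20% without it, against 35.3% and 33.0% of all tested genes that met this condition. Of the 10 members beyond a 2-fold change on the higher side, 1 had a KRAB domain, and that gene, Zfp398, passed through the knockout alone. Of the 12 members without a C2H2 pattern, 9 were called higher (75%) and 2 lower (16.7%), against 43.3% and 30.5% of all tested genes. Zfp106 and Zfp395 among the 9 passed through the knockout alone. The number of C2H2 patterns did not order the fold changes over the 148 coding members (Spearman's rho -0.00). Without any filter 354 Zfp genes could be fitted. Then 135 were called higher and 34 lower, or 38.1% and 9.60%, against 34.8% and 16.2% of 21208 genes, of which 51.0% were called in either direction. Of the 354, 204 genes lay below the filter, with 78 called higher (38.2%) and 7 lower (3.43%) at levels where few reads were counted. The shares over all genes below the filter were not counted, so these calls are no result about the Zfp genes.

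The deposited RPKM of a gene, which depends on its span, went with its direction, as it did over the whole table. Of 67 Zfp genes with a mean under 2 RPKM, 32 were called higher (47.8%) and 9 lower (13.4%), against 56.7% and 19.0% of all tested genes at that level. Between 2 and 5 RPKM the counts were 24 and 9 of 50, or 48% and 18%, against 45.2% and 25.5%. At 5 RPKM or more they were 7 and 13 of 33, or 21.2% and 39.4%, against 27.6% and 47.3% of all tested genes at that level. Zfp281, Zfp598 and Zfp687 were among the 7. Of the 21 members that passed the filter through the knockout alone, all but Zfp275 had a mean under 2 RPKM. So did the 3 that passed through the control alone. The filter fixed the direction of these members, so the counts under 2 RPKM are in part its product. Spearman's rho between mean RPKM and log2 fold change was -0.28 over the Zfp genes and -0.29 over all tested genes, where each gene's mean comes from the same 4 libraries as its fold change.

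Promoter sequence was matched for 124 of the 150 members and for 7030 tested genes. The median count of CG dinucleotides in the 300 bases was 17.5 for the members and 21 for the tested genes. Members with 14 or fewer had 18 higher and 4 lower calls of 35, or 51.4% and 11.4%, against 38.5% and 41.0% of tested genes in that class. With 15 to 24 there were 26 higher and 13 lower calls of 62, or 41.9% and 21.0%, against 44.4% and 29.7%. With 25 or more there were 8 and 5 of 27, or 29.6% and 18.5%, against 47.5% and 26.1%. Zfp68, Zfp106, Zfp157 and Zfp871 among the 18 passed the filter through the knockout alone. So did Zfp1, Zfp266, Zfp275, Zfp334, Zfp398, Zfp606, Zfp668, Zfp692 and Zfp850 among the 26, and Zfp777 among the 8. Zfp59 and Zfp202 among the 13 and Zfp94 among the 5 passed through the control alone. The filter fixed the direction of all of these. Spearman's rho between this count and the log2 fold change was -0.05 over the members and 0.09 over the tested genes. Zfp740, with the most CG dinucleotides, was among the largest rises, and Zfp219, with 9, was too. A set of short motifs was searched on both strands. TGACGTCA, which reads the same on both strands, was found in 4.03% of member promoters and 3.63% of those of all tested genes. CCAAT was found in 41.1% of member promoters and 40.6% of all, and GGGCGG in 55.6% of member promoters and 65.1% of all. In the printed starts, GGGCGG or its complement was present in Zfp740, Zfp553, Zfp275 and Zfp956, CCAAT or its complement in Zfp275, Zfp956 and Zfp110, and TGACGTCA in none.

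Transcripts of the proteins through which KRAB zinc fingers act were measured beside them, and protein was not measured. Of 27 genes for such proteins, 21 were tested. Of these, 12 were called higher (57.1%), 3 lower (14.3%) and 6 neither, against 43.3% higher and 30.5% lower of all tested genes. Gatad2a and Gatad2b among the 12 passed the filter through the knockout alone, which fixed their direction. Trim28, the shared co-repressor, had 95.4 and 90.9 RPKM in the knockout libraries, against 91.5 and 90.2 RPKM in the control libraries, and was not called (log2 fold change 0.03 ± 0.11 SE, adjusted p = 0.798). Setdb1 had 7.51 and 7.57 RPKM in the knockout libraries, against 4.55 and 4.11 RPKM in the control libraries (log2 fold change 0.68 ± 0.09 SE, adjusted p = 0.00193). Chd4, a remodeller of the NuRD complex, had 11.2 and 12.9 RPKM in the knockout libraries, against 7.46 and 6.79 RPKM in the control libraries (log2 fold change 0.68 ± 0.11 SE, adjusted p = 0.00331). As deposited, Trim28 was thus level across the libraries, while Setdb1 and Chd4 were higher in both knockout libraries. Values under other scalings of the libraries, which moved the median of all tested genes, are not given for these genes. Zfp410, known as an activator of Chd4 and named here for that reason, had 2.16 and 2.44 RPKM in the knockout libraries, against 1.47 and 1.38 RPKM in the control libraries. Hells, a remodeller that works with DNA methylation, had 6.21 and 6.76 RPKM in the knockout libraries, against 1.72 and 1.88 RPKM in the control libraries, a log2 fold change of 1.42. The 3 called lower were Uhrf1 itself, Hdac1 and Mbd3.

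Other zinc finger families gave their own counts. Of 27 expressed Zbtb genes, whose fingers are joined to a BTB domain, 14 were called higher (51.9%) and 7 lower (25.9%), with a median log2 fold change of 0.27. Of 17 expressed Zscan and Zkscan genes, whose fingers are joined to a SCAN domain, 7 were called higher (41.2%) and 8 lower (47.1%), with a median of -0.13. The shares over all tested genes were 43.3% higher and 30.5% lower. The Zfp genes lay between them at 0.17. Differences between these families were not tested.

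**Figure D4:**
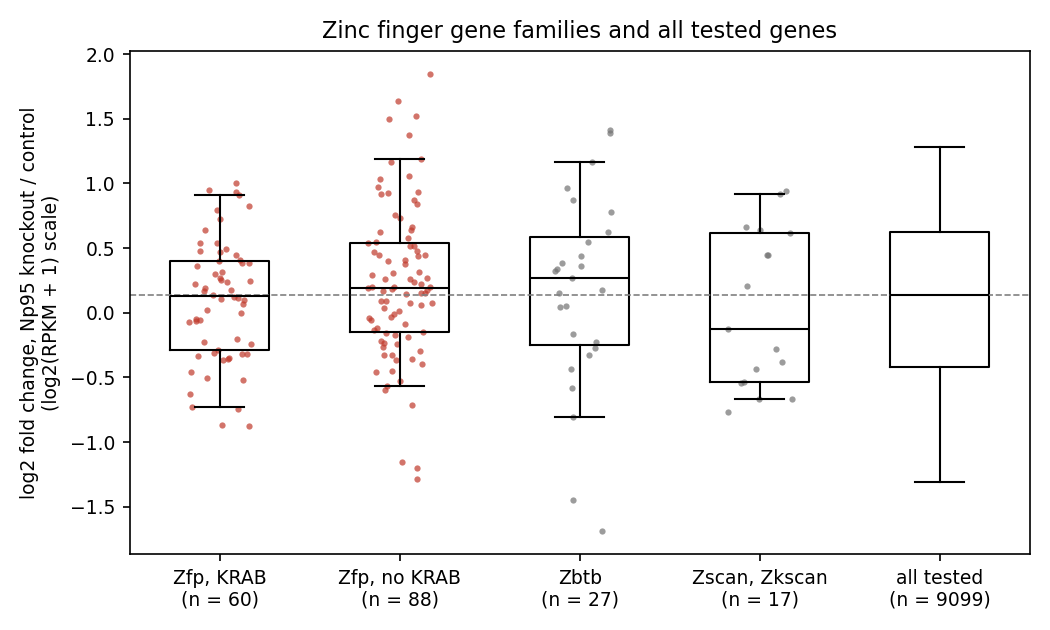
Log2 fold change, Np95 knockout over control, on the log2(RPKM + 1) scale, for Zfp genes with (60) and without (88) a KRAB domain, Zbtb genes (27), Zscan and Zkscan genes (17) and all 9099 tested genes. Points are genes, boxes span the quartiles with the median, whiskers reach the 5th and 95th percentiles, and the dashed line is the median of all tested genes, 0.14. The medians of the 4 families lie between -0.13 and 0.27, inside the box of all tested genes.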

How the data were processed

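The authors deposited RPKM values for 4 libraries, 1 column each, per the file headers, and groups were taken from the sample titles. Bowtie2 and the mouse build mm9 appear in the submitters' processing notes. No counting program or annotation is given in the sources used here. Low values fell within 0.05 of a whole multiple of a step in 58.4% to 60.2% of cases when multiplied by gene span, introns included, and in about 11% by exon length. The RPKM values were thus scaled by span, so the levels of different genes depend on their spans too. The marker sums and the classes by mean RPKM carry this limit. The totals come to about 22250000 and 9640000 steps in the knockout libraries and 11650000 and 25640000 in the control libraries, where a member of median length at 1 RPKM holds 337, 146, 177 and 389 steps in the same order. As not all values gave whole steps, no count test was run.

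Of 24444 rows, 27 with a date for a symbol and 29 repeats of a symbol were left out. Genes with at least 1 RPKM in 2 libraries were tested on log2(RPKM + 1), a scale that understates the change of low genes. The test was limma 3.58.1 (trend on, two-sided, R 4.3.3), Benjamini-Hochberg adjusted over 9099 genes and tested on simulated data. Positions and promoters are from RefSeq GRCm38.p6, matched by symbol, and coding sequences from GENCODE vM21. KRAB domains were found with a pyhmmer 0.12.3 profile of 142 seed proteins (E-value limit 1e-05). Of the members, 51 overlap another gene and 25 share over 10% of their 50-base words with other genes, so their reads are uncertain. Zfp39 (10.1%), Zfp335 (19.2%) and Zfp106 (24.7%) are among the 25. Named are the 10 largest called changes per direction with groups apart and a group mean of at least 2 RPKM, X-linked members, a list of genes by known role (Zfp259, Zfp268, Zfp322 and Zfp989 of it are not analysed here), the 5 highest, the 3 on each side of the threshold, and up to 5 that passed through one group. The members and lists were chosen with earlier results of these data known.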

Additional observations from a re-analysis of the deposited data

How the results depend on the processing

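Against 63 higher and 31 lower calls among the expressed Zfp genes, an equal RPKM sum gave 98 and 11, an equal median 43 and 50, quantile normalization 39 and 44, a filter at 5 RPKM 12 and 14, and no filter 135 and 34. The genes tested differ under the last 2 settings, and for the scalings the cause was not tested. Leaving out 1 library at a time gave 42 to 64 higher and 15 to 34 lower calls, with 15 lower calls without control replicate 1 and likewise without control replicate 2. The median log2 fold change of the members minus that of all tested genes was 0.03. It was 0.10 with the filter at 5 RPKM, 0.076 with no filter, -0.039 with quantile normalization, and -0.0054 to 0.062 with 1 library left out, the lowest being without control replicate 2. It was 0.082 for genes reaching 1 RPKM in each group, a setting chosen after seeing the data. A fit with a replicate block gave 60 higher and 32 lower calls. The labels do not say that replicate numbers pair the samples, and same-numbered libraries deviated together with a correlation of 0.11 in 2 pairs only. The other pseudocounts, a filter on the mean, limma without trend and summed repeats kept both counts within 1.5 times.

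Signs turned for 6 named genes with an equal RPKM sum: Zfp113 to 0.15, Zfp318 to 0.33, Zfp39 to 0.10, Zfp541 to 0.070, Zfp654 to 0.040 and Zfp91 to 0.22. With an equal median Zfp217 turned to -0.10, Zfp667 to -0.089 and Zfp768 to -0.048. With quantile normalization Zfp217 turned to -0.052, Zfp318 to 0.080, Zfp654 to 0.11 and Zfp667 to -0.22. With 2 libraries a group, leaving out a control library ended the calls of 9 named genes without replicate 1 and of 8 without replicate 2.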
